A study of Drosophila melanogaster with 18 samples.

Results

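The RNA of a sedimented granule fraction, called granules 1, was compared directly between Δmimi and wild-type fly heads. The comparison used 6 of the 18 libraries of the series, 3 of Δmimi and 3 of wild type. They were chosen by their labels, which give the genotype, the sample type (purified neuronal granules) and an isolate number, and the first isolate was taken to be granules 1. Δmimi flies carry a deletion in mimi, which encodes a long noncoding RNA, and wild-type flies were of the w1118 strain. All 6 libraries came from untreated adult flies (the study used males and females), which were blended and whose heads were sieved out, ground and cleared by a slow spin, and the pellet of the next, faster spin was collected with no wash. Each preparation pooled many heads, so no value belongs to one animal. Δmimi was a single deletion line, and a difference between it and w1118 can come from the deletion or from the rest of the genetic background. These cannot be told apart with the groups compared here. Lysates and washed pellets (granules 2) of the same preparations served only to place a difference, and they did not enter the test of granules 1.

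Neuronal ribonucleoprotein granules are assemblies without a membrane, in which RNA-binding proteins hold messenger RNAs that are stored, transported or kept from translation. They are known for local protein synthesis in axons and dendrites. Long noncoding RNAs can act as scaffolds of such assemblies. A pellet of this kind also contains other heavy material, and in RNA from whole heads, fewer cells of a type and less RNA per cell cannot be told apart.

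The deletion was made with a pair of CRISPR-Cas9 guide RNAs aimed at the mimi region of chromosome 3R. They are shown because they define the mutant. The capitals mark the last 10 bases, the end of the guide that lies next to the PAM and tolerates mismatches least.
mimi guide 1: tggtagtaccATGAGGCGTG
mimi guide 2: agtgttaattGTAAGATCCC

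The deleted gene was examined first. mimi (FBgn0051451) lies on chromosome 3R, plus strand, between positions 23983503 and 23985065 (BDGP6, the assembly also called dm6). The granules 1 libraries held 60, 74 and 42 mimi reads in Δmimi, against 15258, 18379 and 13144 reads in wild type. As CPM (counts relative to the library size after TMM scaling) these were 9.72, 14.3 and 7.55 CPM in Δmimi, against 2406, 2771 and 2319 CPM in wild type. Every library thus matched its genotype label. The log2 fold change of mimi, Δmimi over wild type, was -7.90 (SE 0.27), with an edgeR adjusted p of 1.69e-05.

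The genes on both sides of mimi did not pass the test. CG31140, whose annotation ends just upstream on the same strand (23963180 to 23983232), had 172, 150.2 and 119 CPM in Δmimi, against 214, 140.5 and 171 CPM in wild type. The paper reports that the untranslated tail of CG31140 reaches into the mimi locus. The origin of the few reads counted for mimi in Δmimi was not tested. CG13603, on the opposite strand (23985213 to 23986569), had 62.7, 58.1 and 50.5 CPM in Δmimi, against 61.2, 70.4 and 63.7 CPM in wild type. The groups overlapped for both genes. Their log2 fold changes were -0.25 (SE 0.19) and -0.19 (SE 0.12).

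Total counts were 5259896 to 6010996 in Δmimi and 5655144 to 6943657 in wild type. Mitochondrial genes took 1.3 to 1.52% of the counts and the 10 genes with the most reads 7.84 to 8.59%. Replicates of a genotype differed by more than counting noise, with a chi-square statistic per degree of freedom of 5.77 to 37.3. The first principal component, with 47.3% of the variance, separated the genotypes, and the second, with 31.9%, set replicate 2 of both genotypes apart from the other 4 libraries. The neuronal marker elav was present in all libraries, with 151, 109 and 102 CPM in Δmimi and 164, 82.2 and 127 CPM in wild type.

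Of 9763 genes tested, 265 were higher in Δmimi (2.71%) and 297 were lower (3.04%), 562 in all (5.76%). The shares of 2.71% and 3.04% are the background for the counts of called members in the gene lists below. In brackets, log2 stands for the log2 fold change. A gene was called when its edgeR adjusted p was under 0.05 and its log2 fold change was beyond 0.5 in either direction. The median log2 fold change of all tested genes was -0.004. The higher genes had fewer reads, with a median of 12.2 CPM, than the lower genes, with a median of 50.9 CPM, and the median over all tested genes was 30.8 CPM. Large differences were more frequent among the higher genes: 97 of 265 exceeded a log2 fold change of 2, against 31 of the 297 lower genes with a fall of more than 2. With the replicate number as a block, 538 genes were higher (5.51%) and 485 lower (4.97%), and these included all 562. Leaving out single libraries gave 124 to 231 higher and 122 to 251 lower genes, the fewest without wild-type replicate 3, and 210 of the 562 genes were called on leaving out any one of the 6 libraries.

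**Figure D1:**
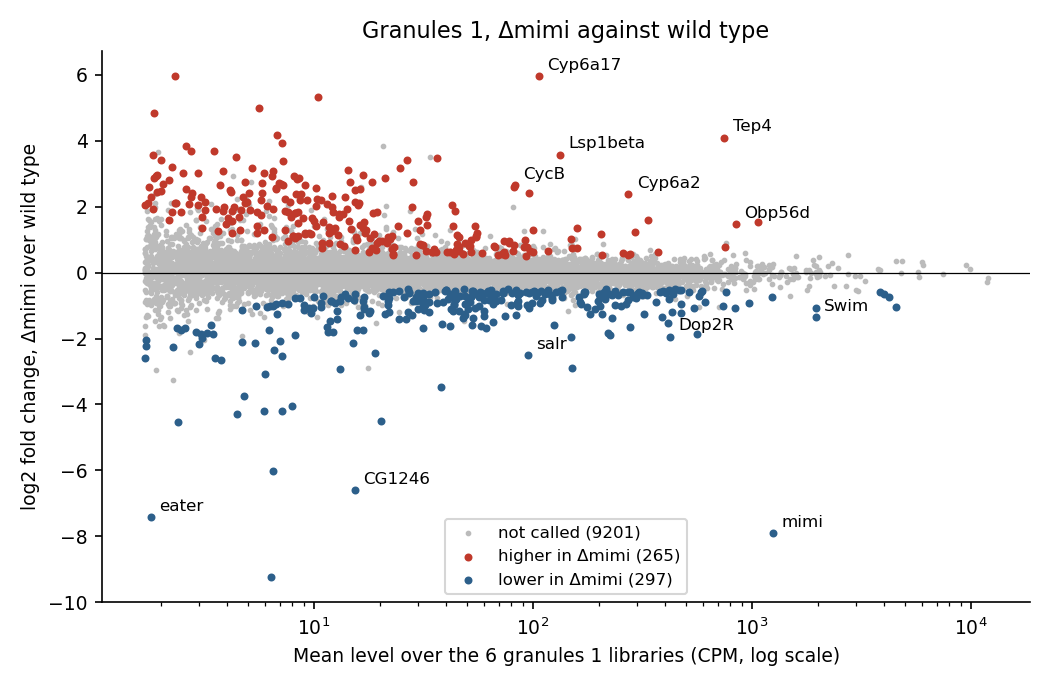
Each point is a tested gene in granules 1, with the mean level over the 6 libraries (CPM, log scale) on the x axis and the log2 fold change of Δmimi over wild type on the y axis. The 265 genes called higher are red and the 297 called lower are blue, and mimi lies at -7.90; the fitted values of genes with no reads in Δmimi, such as eater, depend on the prior count.

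A gene that fell more in the pellet than in the lysate was salr (FBgn0000287, chromosome 2L, 11358873 to 11373636, plus strand), which encodes a zinc finger transcription factor of the Spalt family. In granules 1 it had 26.4, 30.5 and 28.2 CPM in Δmimi, against 154, 161 and 169.9 CPM in wild type. The lowest wild-type library was far above the highest Δmimi library. salr fell by 2.51 (log2, SE 0.10, edgeR adjusted p = 2.28e-05), a call that held on leaving out any 1 library (adjusted p at most 0.000637). In the lysates it had 32.3, 24.6 and 23.9 CPM in Δmimi, against 44.6, 43.6 and 39.8 CPM in wild type, a log2 fold change of -0.66 with an adjusted p of 0.0922. In granules 2 it had 30.01, 40.7 and 24.7 CPM in Δmimi, against 156, 174 and 165 CPM in wild type. The genotypes were thus apart in both pellets and also, by less, in lysate.

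The difference between the genotype effects in granules 1 and in lysate was tested for all genes as an interaction in 12 libraries. This first test did not pair the lysate and pellet of a preparation. salr was the one gene called (0.0102% of 9774), with a difference of -1.84 (log2, SE 0.17, edgeR adjusted p = 0.00161). No gene was called in the other direction, and 255 genes had an unadjusted p under 0.05 in either direction. Without wild-type replicate 3 the salr difference was -1.75 and its adjusted p was 0.0725, and without each of the other preparations it stayed called. The lysate and the pellet of a preparation share their flies. With preparation as a block, which keeps this pairing, 31 genes were called lower and 4 higher (0.317% and 0.0409% of 9774 genes). salr was among the 31, with a difference of -1.84 (SE 0.15, edgeR adjusted p = 4.61e-05).

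Dop2R (FBgn0053517, chromosome X, 20004680 to 20062706, minus strand), a receptor of dopamine, showed the same order of levels. In granules 1 it had 203, 193 and 127 CPM in Δmimi, against 729, 709 and 571 CPM in wild type. The lysates held 407, 277 and 249 CPM in Δmimi, against 424, 344 and 342 CPM in wild type, and the groups overlapped there. Dop2R fell by 1.94 in granules 1 (log2, SE 0.20, edgeR adjusted p = 0.00195), and the lysate difference was -0.25 (adjusted p = 0.684). The difference of these effects, -1.68, was called only with preparation as a block (adjusted p = 2.83e-05, against 0.56 without it). In granules 2 the values were 193, 187 and 126 CPM in Δmimi, against 689.5, 718 and 553 CPM in wild type.

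**Figure D2:**
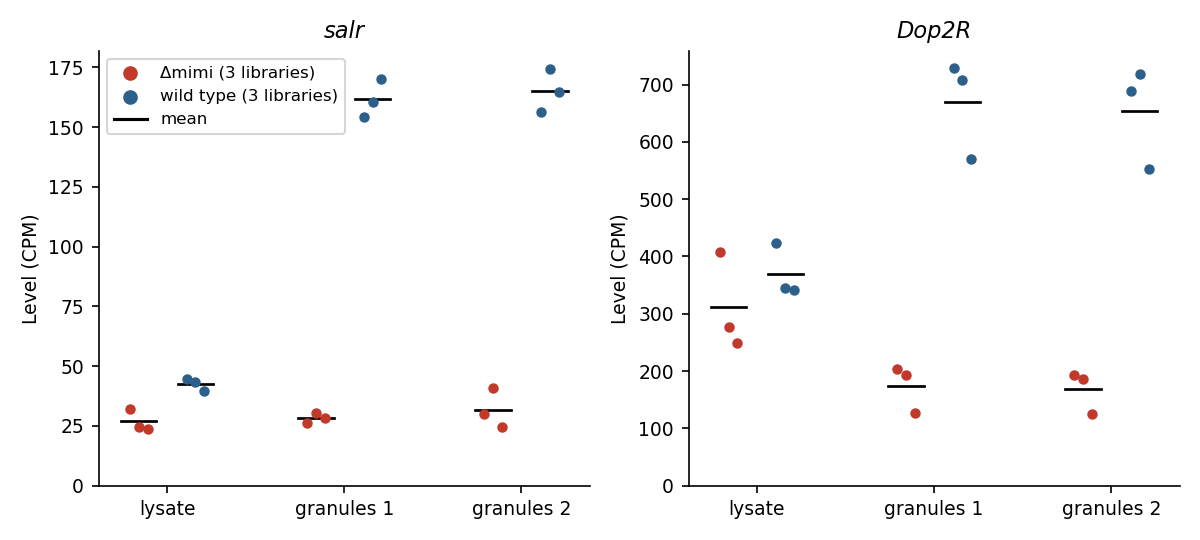
Levels (CPM, linear axis) of salr and Dop2R in lysate, granules 1 and granules 2, with a point per library and a line at the mean of 3 libraries, Δmimi in red and wild type in blue. In granules 1 salr lies at 26.4 to 30.5 CPM in Δmimi and at 154 to 169.9 CPM in wild type, and in lysate the genotypes are much closer.

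Other genes that differed between pellet and lysate under the preparation block are named here after their values were seen. GstS1, the sigma-class glutathione S-transferase, had 96.5, 148 and 98.5 CPM in Δmimi granules 1, against 229, 259 and 226 CPM in wild type, whereas its lysate log2 fold change was 0.09. Fs (Follistatin), an antagonist of activin-type ligands, had 227, 158 and 185 CPM in Δmimi granules 1, against 444, 419.6 and 500.5 CPM in wild type, with log2 fold changes of -1.26 in granules 1 and -0.29 in lysate. The adjusted p of the difference with the block was 0.0057 for GstS1 and 0.00356 for Fs. The call of GstS1 in granules 1 was lost without Δmimi replicate 3 (adjusted p = 0.0569). Of the 31 genes, 23 were called lower in granules 1 and 3 were called in lysate, and their median log2 fold change was -0.93 in granules 1 and -0.08 in lysate. The 31 genes were chosen by this difference in the same libraries, so these values describe the choice and add no support to it. The list also held Sesn (Sestrin), fabp (a fatty acid binding protein), GstD3, GstT3, Cyp4p1 and nrv1 (a beta subunit of the sodium pump). The cuticle gene Cpr72Ec went the other way. It was lower in granules 1, with 1328, 1241 and 1213 CPM in Δmimi, against 2778, 2363 and 2817 CPM in wild type, and lower still in lysate (log2 fold changes -1.07 and -2.05).

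Most RNAs of neuropeptide precursors, which are cut and secreted from dense-core vesicles, had a log2 fold change below 0, but few were called. Of 46 listed genes found among the counts, 32 were tested. Of these, 3 were called lower (9.38%) and 1 higher (3.12%), beside 3.04% and 2.71% of all genes. A log2 fold change below 0 was found for 28, and the median was -0.44, against -0.004 for all genes. Capa, whose peptides act on the Malpighian tubules, had 13.1, 11.8 and 19.95 CPM in Δmimi, against 43.4, 40.6 and 60.2 CPM in wild type. This was a fall by 1.68 (log2, SE 0.24, edgeR adjusted p = 0.00737), called on leaving out any 1 library. Pdf, the pigment-dispersing factor of clock neurons, had 9.23, 4.63 and 7.01 CPM in Δmimi, against 23.5, 11.6 and 20.8 CPM in wild type, and replicate 2 was the lowest of both genotypes. Pdf fell by 1.41 (SE 0.33, adjusted p = 0.0479) and Nplp1 by 0.62 (SE 0.13, adjusted p = 0.0332). CNMa, which encodes the peptide CNMamide, rose, with 3.72, 2.12 and 4.67 CPM in Δmimi, against 1.10, 0.603 and 1.24 CPM in wild type (log2 fold change 1.84, adjusted p = 0.0495). The calls of Pdf and Nplp1 remained only without wild-type replicate 2, with adjusted p up to 0.157 and 0.137 without another library, and that of CNMa only without Δmimi replicate 2 (otherwise up to 0.161).

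The count of lower precursors depended on the pairing and on single libraries. It was 12 with the replicate block, 9 without wild-type replicate 2, 2 without Δmimi replicate 1 and 1 without any other library. AstC, the allatostatin C precursor, averaged 14.9 ± 4.81 CPM in Δmimi and 34.0 ± 9.08 CPM in wild type (SD, n = 3 each; log2 fold change -1.19, edgeR adjusted p = 0.0513, and 0.000961 with the block). Hug, the hugin precursor, averaged 11.2 ± 3.69 CPM in Δmimi and 22.1 ± 6.56 CPM in wild type (log2 fold change -0.97, adjusted p = 0.12, and 0.00342 with the block). AstC and Hug were chosen after their values were seen. The lysate median of the precursors was -0.56. Of the 8 tested genes for processing and release of peptides, such as amon (a prohormone convertase), none was called (log2 fold changes all below 0, median -0.28), with or without the block.

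Among the receptors of neuropeptides, 6 of 37 were called lower (16.2%, beside 3.04% of all genes) and none higher. A log2 fold change below 0 was found for 30, and the median was -0.24 (lysate -0.24). AstC-R1, a receptor of allatostatin C, had 5.83, 5.597 and 5.57 CPM in Δmimi, against 29.7, 24.4 and 20.1 CPM in wild type. It fell by 2.12 (log2, SE 0.18, edgeR adjusted p = 0.00102) and fell alike in lysate (-2.12, adjusted p = 0.0492). ETHR, the receptor of ecdysis-triggering hormone, had 10.5, 11.97 and 11.1 CPM in Δmimi, against 23.8, 23.1 and 28.2 CPM in wild type (log2 fold change -1.16, SE 0.14). TkR99D, a tachykinin receptor, had 6.64, 5.597 and 6.83 CPM in Δmimi, against 13.6, 13.3 and 13.8 CPM in wild type (log2 fold change -1.09, SE 0.15). For these 3 receptors the genotypes were well apart and the call held on leaving out any 1 library. The diuretic hormone receptors Dh44-R1 (-0.65) and Dh31-R (-0.75) and the cholecystokinin-like receptor CCKLR-17D3 (-0.75) were called with smaller margins, and the calls of Dh44-R1 and Dh31-R were lost on leaving out any 1 of the 6 libraries (edgeR adjusted p up to 0.0892 and 0.122). The number of lower receptors was 4 without Δmimi replicate 1, 3 without any other library and 8 with the replicate block.

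Of 39 tested receptors of classical transmitters, 35 were below 0 (median -0.30, lysate -0.25), with Dop2R and Octbeta3R called lower. Octbeta3R, an octopamine receptor, had 67.4, 52.1 and 53.4 CPM in Δmimi, against 95.6, 81.0 and 88.0 CPM in wild type (log2 -0.61, SE 0.13, edgeR adjusted p = 0.0347). With the block 8 of the 39 were called, all lower. Octbeta3R was no longer called without Δmimi replicate 2 or 3 or without wild-type replicate 1 or 3 (adjusted p up to 0.155).

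Of 30 genes of synaptic vesicles and transmitter release, 28 were below 0 (median -0.24, lysate -0.23). Of these genes 3 were called lower (10%, beside 3.04% of all genes). Syt4, a postsynaptic and dense-core vesicle synaptotagmin, had 153, 129 and 121 CPM in Δmimi, against 244.5, 184 and 200.1 CPM in wild type. VGlut, the vesicular glutamate transporter, had 262, 229.5 and 255 CPM in Δmimi, against 420.3, 312 and 408 CPM in wild type. Sytalpha, another synaptotagmin, had 100.1, 87.8 and 98.5 CPM in Δmimi, against 143, 135 and 138 CPM in wild type. Their log2 fold changes of -0.64, -0.61 and -0.54 had SEs of 0.14, 0.14 and 0.09 and edgeR adjusted p-values of 0.0397, 0.0403 and 0.0158. All 3 calls were lost without Δmimi replicate 2 or 3 and without wild-type replicate 1 or 3 (adjusted p up to 0.161), where no gene of this list was called, and VGlut also without Δmimi replicate 1 (adjusted p = 0.0823). With the block 5 genes were lower.

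The 9 markers of head cell types were not called, but all 9 were below 0 (median -0.15). Syt1 and repo, 2 of the 9, did not overlap between genotypes, beside 26.4% of all genes tested (in either direction). Syt1, the neuronal synaptotagmin of synaptic vesicles, had 583, 518 and 408 CPM in Δmimi, against 784, 636 and 598 CPM in wild type (log2 -0.42, edgeR adjusted p = 0.209, and 0.00731 with the block). elav overlapped, as did nSyb (342, 288 and 279 CPM in Δmimi, against 371, 255 and 308 CPM in wild type). brp, a protein of the active zone, had a log2 fold change of -0.15 (SE 0.19) and repo, a transcription factor of glia, one of -0.46 (SE 0.16, edgeR adjusted p = 0.149, and 0.014 with the block). Of 20 glial markers 17 were below 0, with a median of -0.18, and none was called. Ion channels had a median of -0.20 (lysate -0.19), with 20 of 24 below 0 and none called. The part of the makeup of the tissue in the neuronal differences was not tested.

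Of 26 tested RNA-binding proteins of neuronal granules, 22 were above 0, with a median of 0.08, and 2 were called, both higher. me31B, a helicase of RNP granules, had 111, 112 and 133 CPM in Δmimi, against 74.9, 71.8 and 79.4 CPM in wild type (log2 0.65, SE 0.11, edgeR adjusted p = 0.0135). This call was lost without wild-type replicate 1 or 3 (adjusted p up to 0.0581). The other was nanos, a translational repressor that is described with the germline genes, since both lists hold it. Of the 19 RNAs and granule components that the study discusses by name, mimi and Sytalpha were called. The other 17 ranged from -0.52 (snRNA:7SKa) to 0.37 (stau, which encodes the double-stranded RNA-binding protein Staufen). stau had 158, 158 and 128 CPM in Δmimi, against 132, 93.5 and 117 CPM in wild type, with overlap. snRNA:7SKa, the noncoding RNA that holds the elongation factor P-TEFb inactive, had 2843, 2241 and 2306 CPM in Δmimi, against 4404, 2987 and 3229 CPM in wild type. Its adjusted p was 0.149, and 0.00367 with the replicate block.

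Calls among genes of DNA replication and mitosis were all in one direction. Of 69 tested, 67 were above 0, 23 were called higher and none lower, with a median log2 fold change of 1. In 51 of the 69 the lowest Δmimi library was above the highest wild-type library. This held for 1161 of all 9763 genes tested, and 26.4% of them had groups that did not overlap in either direction. Summed over the 73 listed genes with counts, tested or not, the level was 1290, 1496 and 1935 CPM in Δmimi, against 939, 871 and 956 CPM in wild type. Δmimi replicate 3 had the highest sum. CycB (cyclin B), which drives entry into mitosis, had 85.3, 133 and 212 CPM in Δmimi, against 21.8, 26.5 and 20.5 CPM in wild type (log2 2.64, SE 0.32, edgeR adjusted p = 0.00415). The kinase polo rose by 2.55, the phosphatase stg by 2.42, the spindle protein asp by 1.98 and the replication clamp PCNA by 1.68, and these 5 calls held without any 1 library.

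The count of called replication and mitosis genes moved with single libraries. It was 28, 16 and 11 without Δmimi replicates 1, 2 and 3, and 7, 15 and 8 without wild-type replicates 1, 2 and 3. It was 40 with the replicate block. In lysate the median was 0.87 and none of the list was called. CycA (cyclin A), chosen after its values were seen, showed how unequal the spread was, with 69.2 ± 33.0 CPM in Δmimi and 16.7 ± 0.67 CPM in wild type (SD, n = 3 each).

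Part of the genes of the oocyte and the maternal germline were higher as well. Of 51 listed genes found among the counts, 42 were tested, 35 were above 0, 15 were called higher and none lower, and the median was 0.78 (lysate 0.57, with qin alone called there). The summed level was 3152, 3097 and 3280 CPM in Δmimi, against 2747, 2732 and 2735 CPM in wild type. nanos had 25.4, 44.4 and 42.4 CPM in Δmimi, against 4.73, 7.24 and 3.35 CPM in wild type, a rise of 2.85 (log2, SE 0.32, edgeR adjusted p = 0.00298). piwi, the nuclear piRNA-binding protein, had 9.55, 9.07 and 9.89 CPM in Δmimi, against 2.37, 1.66 and 2.12 CPM in wild type, a rise of 2.21 (SE 0.22). swa, which localizes bcd mRNA in the oocyte, rose by 2.85, otu by 2.92 and qin, a piRNA pathway protein, by 1.83. zpg, the germline gap junction protein, had 5.34, 5.21 and 8.99 CPM in Δmimi, against 0.789, 0.452 and 0.176 CPM in wild type. The genotypes did not overlap for these 6 genes, as for all 562 called genes. osk and bcd, which pattern the egg, were named after their values were seen, with 49.0 ± 22.1 and 13.3 ± 6.65 CPM in Δmimi, against 4.57 ± 1.93 and 1.24 ± 0.39 CPM in wild type (SD, n = 3 each). The count of called genes was 21 with the block and 10 to 14 without 1 library.

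Markers of other tissues were measured beside these lists. Of 22 eggshell genes 3 were tested, none was called and all 3 were below 0, with sums of 72.7, 91.5 and 72.3 CPM in Δmimi, against 96.8, 129 and 88.4 CPM in wild type. Of 27 testis genes 6 were tested, none was called, and the sums were 151, 124 and 107 CPM in Δmimi, against 152, 126 and 127 CPM in wild type, with comr, sa, nht and ProtA at 0 in all 6 libraries. Of 31 male accessory gland genes 5 were tested and none was called, whereas 2 were called higher with the replicate block, Acp54A1 (adjusted p = 0.00291) and Dup99B (adjusted p = 0.0238). The sums of the list were 26.4, 356 and 373 CPM in Δmimi, against 34.1, 300.3 and 87.5 CPM in wild type, so that replicate 1 was low in both genotypes and Sfp79B was at 0 in all. RpS5b, a ribosomal protein copy enriched in the germline, was the only cytosolic ribosomal protein of 78 that was called, with 16.2, 21.8 and 22.5 CPM in Δmimi, against 6.47, 5.58 and 5.47 CPM in wild type. The oocyte gene cup was at 0 in all 6 libraries. The part of body tissue that passes the sieves in the germline and mitosis differences was not tested.

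**Figure D3:**
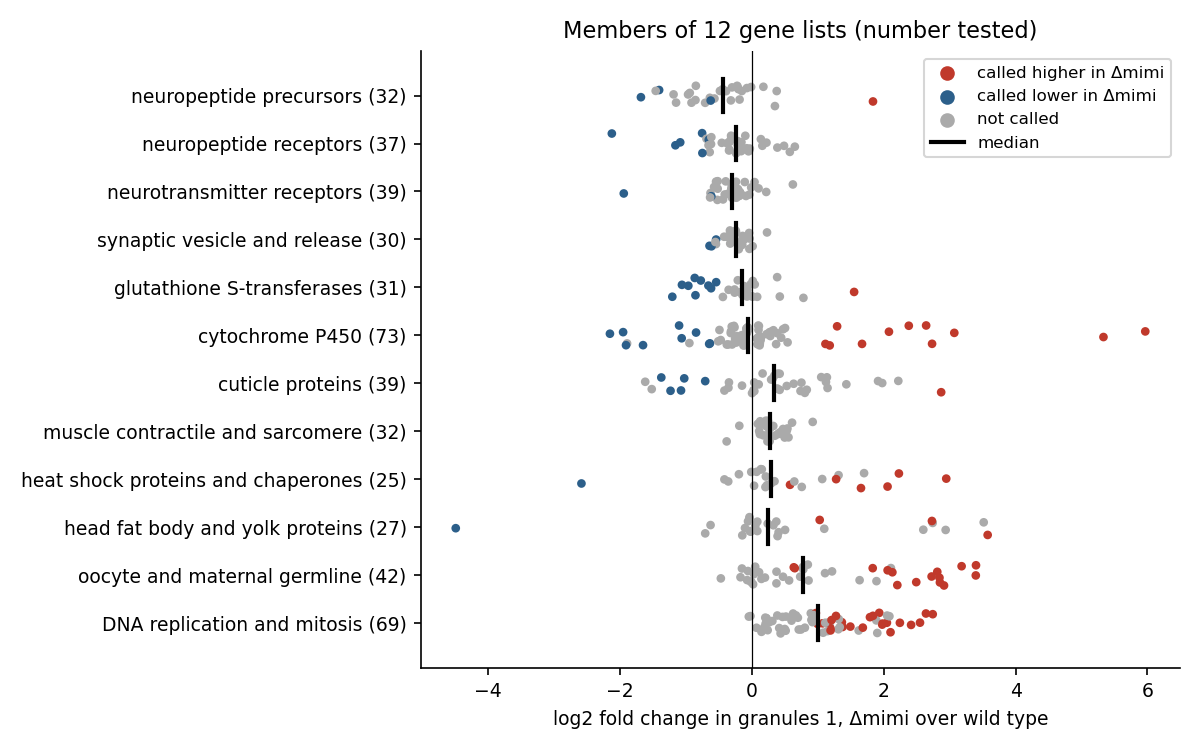
Each point is a tested member of a gene list, with the log2 fold change in granules 1 of Δmimi over wild type on the x axis, red where called higher, blue where called lower and grey where not called; a black line is the median. Replication and mitosis (median 1) and oocyte genes (0.78) lie right of 0, and neuropeptide precursors (-0.44) and receptors lie left of it.

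Enzymes of detoxification held some of the largest differences, in both directions. Of 73 cytochrome P450 genes, 11 were higher and 9 lower (median -0.06), or 11 higher and 10 lower with the block. Cyp6a17 (FBgn0015714, chromosome 2R, 14873953 to 14875739), a P450 with a role in temperature preference, had 216, 213 and 199.5 CPM in Δmimi, against 3.00, 3.47 and 3.53 CPM in wild type, a rise of 5.97 (log2, SE 0.12, edgeR adjusted p = 7.61e-07). Cyp6a2, a P450 associated with insecticide resistance, had 487, 429 and 463 CPM in Δmimi, against 85.5, 86.1 and 93.2 CPM in wild type, a rise of 2.38 (SE 0.10). Cyp6a20, which has been linked to male aggression, went the other way, with 94.9, 102 and 87.9 CPM in Δmimi, against 334, 396 and 336 CPM in wild type, and fell by 1.91 (SE 0.11). Cyp4p1 fell by 1.95 (SE 0.10), with 60.1, 62.7 and 61.5 CPM in Δmimi, against 215, 244 and 254 CPM in wild type. Neighbouring Cyp6a genes are close copies, and reads shared between them could have been split or lost in the counting.

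Glutathione S-transferases, which couple glutathione to electrophiles, were lower more often than higher, with 9 of 31 called lower and 1 higher, or 2 higher with the block (median -0.14). In lysate none was lower and 3 were higher. Of this family GstS1, GstD3 and GstT3 were called for the difference between pellet and lysate, and only with preparation as a block. GstD3 had 24.3, 18.9 and 17.98 CPM in Δmimi, against 49.8, 44.6 and 46.9 CPM in wild type (log2 -1.21, SE 0.14, edgeR adjusted p = 0.00379). GstE14, an enzyme of ecdysteroid synthesis, had 169, 148 and 154 CPM in Δmimi, against 231.5, 271 and 241 CPM in wild type (log2 fold change -0.66, and -0.05 in lysate). The difference between pellet and lysate was not called for GstE14, with or without preparation as a block. GstE5 was the member that rose, with 14.7, 13.5 and 16.7 CPM in Δmimi, against 3.94, 5.73 and 5.65 CPM in wild type. GstD3 and GstE5 were called on leaving out any 1 library. Without single libraries the count of lower members was 5, 7 and 1 (Δmimi replicates 1, 2 and 3) and 4, 6 and 2 (wild-type replicates 1, 2 and 3), and GstE14 lost its call without replicate 3 of either genotype (adjusted p up to 0.0617). Of 18 UDP-glycosyltransferases, Ugt50B3 and Ugt37D1 were higher and Ugt36E1 lower, and Ugt37D1 was not called without Δmimi replicate 1 or 2 or wild-type replicate 1 or 3 (adjusted p up to 0.0994).

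Secreted proteins of immunity and the fat body differed gene by gene. Tep4, a thioester-containing complement-like protein (FBgn0041180, chromosome 2L, 19548507 to 19556451), had 1274, 1471 and 1509 CPM in Δmimi, against 74.3, 77.5 and 97.4 CPM in wild type, a rise of 4.09 (log2, SE 0.15, edgeR adjusted p = 2.05e-05). Of 26 antimicrobial peptides and Bomanins, 3 were higher and 1 was lower, and with the block 6 were higher and 5 lower. BomBc1 had 28.3, 22 and 26.1 CPM in Δmimi, against 4.73, 1.51 and 5.29 CPM in wild type, and BomS1 rose by 1.40. Def (Defensin) had 30.3, 45.2 and 27.3 CPM in Δmimi, against 91.6, 92.7 and 108 CPM in wild type, and fell by 1.51. Opposite differences thus stood side by side within this list. eater, a phagocytic receptor of hemocytes, had no read in Δmimi, against 18, 25 and 24 reads in wild type. It was at least 6.76-fold lower in Δmimi, taking 3 counts per library as the floor. The call of eater held without each Δmimi library (edgeR adjusted p up to 0.019), and without a wild-type library the gene was below the base mean needed for a test.

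In the fat body list 3 of 27 genes were higher and 1 was lower (median 0.24). Lsp1beta, a larval storage protein, had 175.5, 366 and 194.5 CPM in Δmimi, against 23.7, 24.1 and 13.6 CPM in wild type (log2 3.58, SE 0.35, edgeR adjusted p = 0.00163). Adh (alcohol dehydrogenase) had 32.6, 33.4 and 30.02 CPM in Δmimi, against 4.10, 6.33 and 3.88 CPM in wild type (log2 fold change 2.73). to (takeout), a circadian and feeding gene of head fat body, rose by 1.03. tobi, an insulin-regulated alpha-glucosidase, was the lower one, with 1.78, 1.16 and 2.16 CPM in Δmimi, against 36.9, 57.3 and 22.1 CPM in wild type (log2 fold change -4.49, SE 0.43). All 4 calls held without any 1 library. With the block 7 genes were higher and 2 lower. The summed level of the list overlapped between genotypes.

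Eye genes were among the called genes with the most reads. Pdh, the photoreceptor dehydrogenase of retinoid metabolism, had 3393, 3043 and 2548 CPM in Δmimi, against 6465, 6407 and 5655 CPM in wild type, and fell by 1.04 (log2, SE 0.14, edgeR adjusted p = 0.00593). Rh5, an opsin of inner photoreceptors, had 149, 136 and 139 CPM in Δmimi, against 259.9, 233 and 278 CPM in wild type, and fell by 0.86 (SE 0.10). Pu (Punch), the GTP cyclohydrolase of pteridine synthesis, had 3341, 2950 and 3155 CPM in Δmimi, against 4898, 4831 and 5051 CPM in wild type, and fell by 0.65 (SE 0.11). Crys, a lens protein, rose by 1.53 (SE 0.20), with 1755, 1620 and 1400 CPM in Δmimi, against 646, 393.5 and 619 CPM in wild type. The major opsin gene ninaE overlapped between genotypes, with 14900, 7281 and 11640 CPM in Δmimi, against 16010, 6727 and 15110 CPM in wild type. Rh5 was the one lower gene of 32 phototransduction genes (median -0.08), a share of 3.12% beside 3.04% of all genes. The block called 2 of the 32 higher and 2 lower. The call of Pu was lost without Δmimi replicate 3 or wild-type replicate 1 or 3 (adjusted p up to 0.0845), and the others held.

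**Figure D4:**
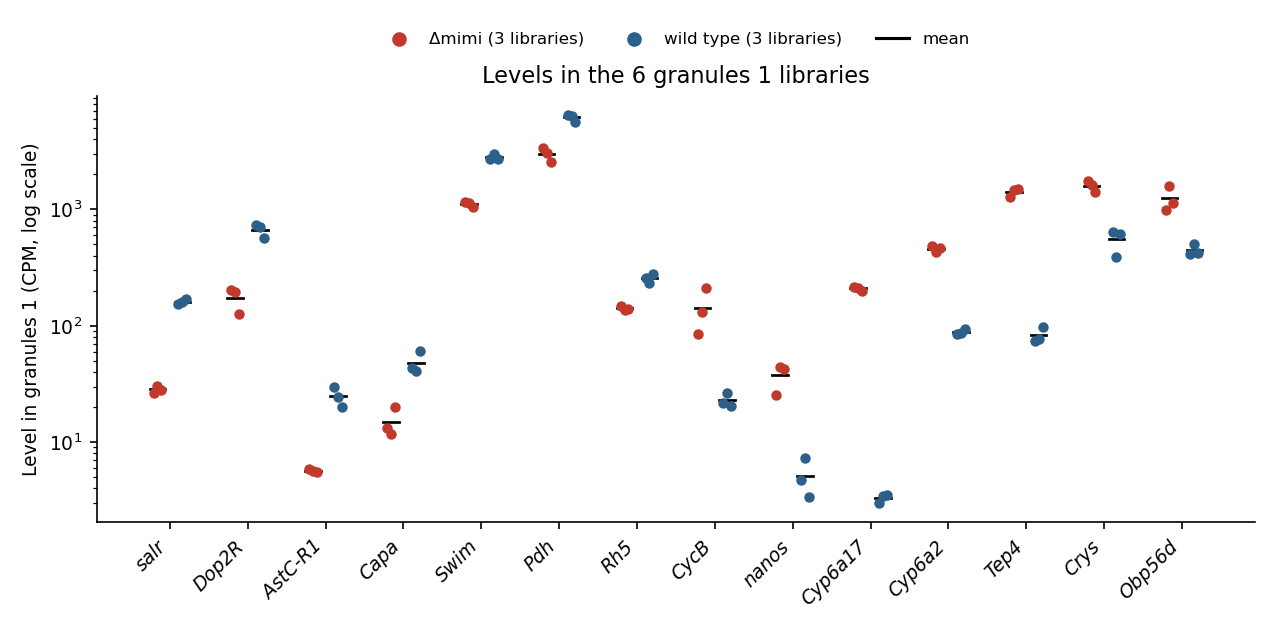
Levels (CPM, log scale) of 14 called genes in the granules 1 libraries, with a point per library, Δmimi in red left of wild type in blue, and a line at the mean. The genotypes do not overlap for any of them, as for all 562 called genes. salr lies at 26.4 to 30.5 CPM in Δmimi and 154 to 169.9 CPM in wild type. Obp56d lies at 996 to 1603 CPM in Δmimi and 414 to 509 CPM in wild type.

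Swim, a secreted protein that binds Wingless, fell by 1.34 (log2, SE 0.11, edgeR adjusted p = 0.000749), with 1157, 1127 and 1039 CPM in Δmimi, against 2723, 3003 and 2703 CPM in wild type. Its lysate log2 fold change was -0.81 (adjusted p = 0.202), and the difference between pellet and lysate was not called, with or without preparation as a block. Dhc98D, a dynein heavy chain, had 5.83, 6.56 and 6.65 CPM in Δmimi, against 66.1, 71.6 and 71.8 CPM in wild type, and fell by 3.46 (SE 0.12, adjusted p = 1.69e-05). CG1246 had 0.486, 0.193 and 0.180 CPM in Δmimi, against 29.0, 31.8 and 30.9 CPM in wild type. It fell by 6.60, and by 4.27 in lysate, and the difference of these was not called either.

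Cuticle proteins were split, with 5 of 39 called lower and 1 higher although 28 were above 0 and the median was 0.34. Cpr62Bb had 126, 141 and 118 CPM in Δmimi, against 319, 356 and 321 CPM in wild type, and fell by 1.37 (log2, SE 0.11, edgeR adjusted p = 0.00066). Cpr51A rose, with 11.7, 21.8 and 11.7 CPM in Δmimi, against 2.21, 2.41 and 1.41 CPM in wild type. With the block the counts were 10 higher and 6 lower. Leaving out Δmimi replicate 3 or wild-type replicate 1 gave 3 lower members.

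Of 30 odorant-binding proteins 4 were higher (13.3%) and 1 was lower (3.33%), beside 2.71% and 3.04% of all genes. Obp56d had 996, 1603 and 1140 CPM in Δmimi, against 414, 509 and 426 CPM in wild type (log2 1.47, SE 0.19, edgeR adjusted p = 0.00529), and Obp8a rose by 2.33. Among 44 tested chemoreceptor genes 2 were higher (4.55%) and 3 lower (6.82%), with 24 above 0 and a median of 0.08. The ionotropic receptor Ir76a was lower, with 6.15, 4.05 and 6.11 CPM in Δmimi, against 20.7, 15.1 and 21.4 CPM in wild type (log2 fold change -1.79). Obp56d, Obp8a and Ir76a were called on leaving out any 1 library. With the block 6 odorant-binding protein genes were higher and 5 lower.

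Heat shock genes were higher more often than lower, with 6 of 25 called higher and 1 lower (median 0.29). Hsp26, a small heat shock protein, had 37.4, 53.3 and 39.7 CPM in Δmimi, against 14.98, 22.2 and 16.4 CPM in wild type (log2 1.28, SE 0.20, edgeR adjusted p = 0.0113, and 0.0587 without wild-type replicate 3). Hsp70Bb had 11.8, 23.2 and 16.5 CPM in Δmimi, against 4.10, 4.22 and 2.47 CPM in wild type. Its near-identical copy Hsp70Ba was lower, with 0.486, 0.579 and 0.360 CPM in Δmimi, against 2.84, 3.32 and 2.65 CPM in wild type. Reads of such copies cannot be assigned with certainty, so the split between them is uncertain. The count of higher members was 10 with the block. It was 4, 4 and 3 without Δmimi replicates 1, 2 and 3, and 3, 4 and 1 without wild-type replicates 1, 2 and 3.

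Of 207 tested genes of the ncRNA biotype 7 were higher and 9 lower, the 9 including mimi, and these shares are near those of all genes (2.71% and 3.04%). The antisense RNA asRNA:CR45822 (FBgn0267472, chromosome 3L, 7355717 to 7356598, plus strand) had no read in Δmimi, against 96, 66 and 75 reads in wild type, at least 23.9-fold lower with a floor of 3 counts per library. asRNA:CR45835, a few kilobases away on the minus strand (7361639 to 7363598), had 2, 0 and 1 reads in Δmimi, against 69, 75 and 93 reads in wild type, a ratio of 0.0139 with a 95% Poisson interval of 0.0029 to 0.041 for counting error. Of 67 antisense RNAs, 5 were lower and 2 higher, or 7 lower and 2 higher with the block. Whether the counting used the strand is not stated, so reads of an antisense RNA and its partner may not be separated.

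lncRNA:CR32385 was at the opposite end, with 30, 20 and 28 reads in Δmimi, against 1, 0 and 0 reads in wild type, a ratio of 85.9 (95% Poisson interval 15 to 3440). Both tested hairpin RNAs, precursors of endogenous siRNAs, were higher and lie close together on chromosome 3L. hpRNA:CR33940 had 15.9, 13.1 and 9.53 CPM in Δmimi, against 1.42, 0.151 and 0.529 CPM in wild type, and hpRNA:CR32207 had 5.02, 5.21 and 5.21 CPM in Δmimi, against 0, 0.452 and 0.706 CPM in wild type. Their log2 fold changes in lysate were 3.96 and 4.07.

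The spliceosomal snRNA:U2:34ABa had 493, 574 and 445 CPM in Δmimi, against 173, 182 and 145 CPM in wild type (log2 1.60, SE 0.14, edgeR adjusted p = 0.00102), the one small nuclear RNA of 14 called. It is one of several U2 copies. Of 111 small nucleolar RNAs, which guide modification of ribosomal RNA, 5 were lower and 1 higher (median -0.23), and 14 were lower with the block. snoRNA:Psi18S-1377a, b and c, which belong to one cluster and are alike, were among the 5, with log2 fold changes of -1.08, -1.42 and -1.04. No lower small nucleolar RNA was called without Δmimi replicate 1 or 2 or wild-type replicate 3, and 1, 2 and 3 were called without wild-type replicate 2, Δmimi replicate 3 and wild-type replicate 1 in turn. In lysate none was called, and none was called for the difference between pellet and lysate, with or without preparation as a block.

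Several large groups held no called gene. Muscle genes were above 0 in 30 of 32 cases (median 0.27), but the summed levels were 36510, 73590 and 37460 CPM in Δmimi, against 31750, 59060 and 31020 CPM in wild type, with replicate 2 the highest of both genotypes. Nuclear genes of oxidative phosphorylation were below 0 in 60 of 69 cases (median -0.17), none called. Neither the 70 mitochondrial ribosomal proteins (median -0.10) nor the 13 mitochondrially encoded genes (median 0.16) held a call, and the 20 genes of cAMP and calcium signalling had a median of -0.03. In these lists the block called 2 muscle genes higher and no other gene. Turandot stress peptides varied widely, as in TotC with 1.46, 5.597 and 5.75 CPM in Δmimi, against 22.7, 11.8 and 59.3 CPM in wild type (log2 -2.88, SE 0.69, edgeR adjusted p = 0.0527, and 0.00189 with the block).

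Called genes were spread over the genome. The share called was 5.41% on 2L, 7.47% on 2R, 6.02% on 3L, 5.93% on 3R, 3.88% on X and 3.41% on chromosome 4, beside 5.76% of all genes. No gene other than mimi was called within 50 kb (15 tested) or 100 kb (30 tested) of it. Within 500 kb 3 of 113 were called (2.65%), namely Apc2, GILT3 and Root. The share was 4.11% within 1000 kb (219 tested) and 5% within 5000 kb (820 tested). GILT3, a thiol reductase of lysosomes, had 0.162, 0.579 and 0.539 CPM in Δmimi, against 8.52, 11.3 and 5.65 CPM in wild type.

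The calls of granules 1 were then set beside those of the other fractions, whose libraries come from the same preparations and are not independent of them. In lysate 84 genes were higher and 76 lower (1.64% of 9774 tested). Of the 265 higher genes in granules 1, 73 were also higher in lysate (27.5% of 265 and 86.9% of 84), and of the 297 lower genes 62 were also lower there (20.9% of 297 and 81.6% of 76). None was called in opposite directions. The numbers of calls in the fractions depended on the pairing, and with the replicate block they were close, with 538 higher and 485 lower genes in granules 1 and 924 called genes in lysate. The median SE over 7400 genes, without the block, was 0.14 in granules 1 and 0.15 in lysate. Among the genes called in granules 1 and tested in lysate, all 258 higher genes were above 0 in lysate and 279 of 289 lower genes were below 0. The median log2 fold changes were 1.66 in granules 1 and 1.51 in lysate for the higher genes, and -0.90 in granules 1 and -0.61 in lysate for the lower genes. These genes were chosen by their values in granules 1, which by itself can make the lysate medians smaller in size.

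**Figure D5:**
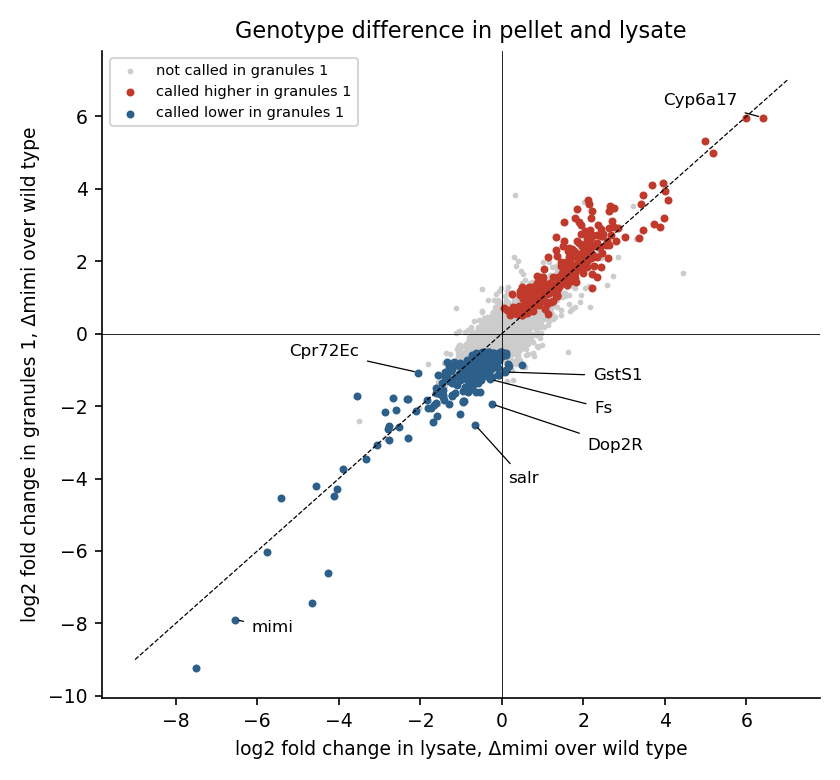
Each point is a gene, with the log2 fold change of Δmimi over wild type in lysate on the x axis and in granules 1 on the y axis; the dashed line marks equal values, and genes called in granules 1 are red (higher) or blue (lower). salr (-0.66 in lysate, -2.51 in granules 1) and Dop2R lie far below the line, and Cpr72Ec lies above it.

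In granules 2, the washed pellets of the same preparations, 257 genes were higher (2.67%) and 248 lower (2.57%), 5.24% of 9636 in all. They shared 187 higher genes (70.6% of 265 and 72.8% of 257) and 207 lower genes (69.7% of 297 and 83.5% of 248) with granules 1.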

How the data were processed

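Total RNA of fly heads was sequenced after ribosomal RNA removal with a stranded kit. The authors mapped reads with STAR to dm6 and counted them per gene with featureCounts (Subread) in snakePipes, and the deposited values are whole-number counts with no normalization. The strand setting of the counting is not given in the sources used here. The table had 17558 genes and 0 unused columns. Names, positions and biotypes came from an Ensembl annotation of BDGP6, which matched 17252 identifiers and not the other 306. Columns of the authors' own comparisons (DESeq2 fold changes and p-values) were not used.

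Granules 1 was fitted alone, 3 Δmimi against 3 wild-type libraries, in edgeR (4.0.16, with limma 3.58.1 and R 4.3.3) by its quasi-likelihood test, using TMM scaling, a base mean above 10 and Benjamini-Hochberg adjustment over all tested genes. A call needed an adjusted p below 0.05 and a log2 fold change beyond 0.5 either way. The SE is the absolute log2 fold change over the square root of F. Lysate and granules 2 were fitted in the same way, and the interaction used 12 libraries. Nothing in the labels says what made replicates separate, so p-values measure the spread between these preparations. Floors and intervals cover counting error only, since reads carry no molecular identifiers.

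Same-numbered libraries of both genotypes deviated together in granules 1 (r = 0.659, 0.643 and 0.398 over 7703 genes, against -0.599 to 0.208 for other pairs). The labels do not say what a number marks, so the fit without a block is the main one. The replicate block is given beside many of the results that it changes, not all.

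Named genes were mimi with its neighbours, the genes discussed by the study, the called genes with the largest change, the most reads or the lowest p, and up to 5 called members of each list (up to 2 of lowest p where none was called). A selection of these is given. The members, lists and rules were chosen with earlier results of these data known. Gene lists were written from general knowledge. AstC, Hug, CycA, osk, bcd, Fs, Sesn, fabp, GstT3, nrv1, CCKLR-17D3, Apc2 and Root were named after their values were seen. Alternatives were RLE scaling, DESeq2 version 1.42.0, other filters, leaving out each library, the block, a length offset and a fit of all 18 libraries. The counts of list members under these alternatives were added after seeing the data. Only the granules 1 test without a block was checked on simulated data. The simulated counts had a single setting of spread and no effect shared by replicate number, unlike these libraries.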

Additional observations from a re-analysis of the deposited data

Results flagged for a closer look

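The genotype difference of salr in granules 1 minus that in lysate was -1.84 in log2 units (SE 0.17), with an edgeR adjusted p of 0.00161, so that the effect of genotype differed between the pellet and the lysate by a test of the difference itself. This test did not pair the lysate and pellet of a preparation, and salr was the one gene called in it. With preparation as a block 35 genes were called, salr among them (-1.84, edgeR adjusted p = 4.61e-05). salr stood at 28.4 ± 2.05 CPM in Δmimi and 162 ± 7.804 CPM in wild type in granules 1, and at 26.9 ± 4.63 CPM in Δmimi and 42.6 ± 2.54 CPM in wild type in lysate (SD, n = 3 each). Without the block, leaving out 1 preparation gave differences of -1.65 to -1.95. The edgeR adjusted p was then above the threshold only without wild-type replicate 3 (0.0725).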

How the results depend on the processing

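The counts of called genes depended on the pairing and on single libraries, and the cause was not tested. In granules 1 the 265 higher and 297 lower genes became 538 and 485 with the replicate block, and 576 and 456 with the block and a length offset. A base mean above 50 left 158 higher genes, with fewer genes tested. DESeq2 called 362 higher and 339 lower genes. Leaving out 1 library gave 124 to 231 higher and 122 to 251 lower genes. In lysate 160 genes became 924 with the block, 414 with DESeq2 and 73 to 267 without 1 library. In granules 2 the 505 genes became 1082 with the block and 243 to 444 without 1 library. The interaction called 35 genes with the block, and 0 to 1 without 1 preparation. No called gene in granules 1 that is named here reversed its sign under an alternative. Among genes that were not called, the log2 fold change crossed 0 on leaving out single libraries for elav (-0.268 to 0.213), nSyb (-0.165 to 0.109), brp (-0.31 to 0.041), ninaE (-0.465 to 0.09) and trp (-0.108 to 0.052). Depth limited genes with few reads. The differences of the fly lines outside mimi and those of the deletion cannot be told apart.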
